A study of Mus musculus with 12 samples.

Results

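The question addressed here is whether MS-275 shifted transcript levels differently in calvariae of Runx2+/- embryos than in calvariae of wild type (WT) embryos. The measure is the genotype by drug interaction of each gene, which is the log2 difference of Runx2+/- MS-275 minus Runx2+/- vehicle, minus the log2 difference of WT MS-275 minus WT vehicle. A negative value means that the MS-275 minus vehicle difference was lower in Runx2+/- than in WT. The fit used 12 of the 12 RNA sequencing libraries of the series, and a second fit used 11, without replicate 3 of Runx2+/- MS-275. The calvaria is the vault of the skull, and it was taken from C57BL/6 embryos at embryonic day 17.5 and frozen before extraction of total RNA. The 4 groups of 3 libraries were Runx2+/- embryos exposed to MS-275, Runx2+/- embryos exposed to vehicle, WT embryos exposed to MS-275 and WT embryos exposed to vehicle. Exposure was through the mother: dams received MS-275 intraperitoneally at a dose of 10 mg/kg, once on day 14.5 of pregnancy and again on day 16.5, and both parents had been mated at 8 weeks of age. All embryos share the C57BL/6 background and the same stage. The labels do not say which piece of Runx2 is missing, nor whether libraries of a group came from separate embryos or litters, so every p measures only the spread between these libraries. A dam receives the drug as a whole, so litter and treatment cannot be told apart where the libraries of a group share a dam.

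RUNX2 is the transcription factor that commits mesenchymal cells to the osteoblast lineage, and loss of one copy impairs bone formation in the skull vault and the collarbones, as in human cleidocranial dysplasia. MS-275, also called entinostat, is a benzamide that blocks class I histone deacetylases (HDACs), the enzymes that remove acetyl groups from histones and other proteins. Histone deacetylases also act as corepressors of RUNX2 at bone genes. Osteoclasts, which resorb bone, come from the macrophage lineage and form in response to RANKL made by osteoblasts and their precursors.

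Counts in genes were 13307456 to 19399760 per library. Replicate 3 of Runx2+/- MS-275 stood apart from its group. Whether it was exposed as labelled cannot be checked from the files, and every value from 12 libraries rests on that label. On the first principal component, which held 72.5% of the variance, it scored −106, while the other 2 libraries of its group scored 114 and 83.9. The vehicle libraries of Runx2+/- scored −122 to −14.5, those of WT scored −111 to 5.51, and the WT MS-275 libraries 105 to 140.0. Replicate 3 of each vehicle group was also apart. It scored −14.5 in Runx2+/- (others −92.7 and −122) and 5.51 in WT (others −108 and −111). On the second component these 2 libraries were the lowest, at −51.8 in Runx2+/- and −93.5 in WT. Both stayed in the fit without replicate 3 of Runx2+/- MS-275. In replicate 3 of Runx2+/- MS-275 the share of uniquely aligned reads outside any gene was 22.2%, while the other 2 of its group had 6.36% and 8.65%. All 3 Runx2+/- MS-275 libraries held 29300 or more Xist counts, a transcript of the inactive X chromosome in females, while each other group mixed libraries at 19585 or more with libraries at 60 or fewer. Sex is therefore not balanced over the 4 groups, and its part in the interaction was not tested.

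No gene passed the interaction test in either fit. Of 17967 genes tested with 12 libraries, 0 were called higher and 0 lower at a Benjamini-Hochberg adjusted p under 0.05 (edgeR, quasi-likelihood F test), and the lowest adjusted p was 0.873. Of 18216 genes tested with 11 libraries, 0 were again called, with a lowest adjusted p of 1.0. At an unadjusted p under 0.05 there were 817 higher and 136 lower with 12 libraries (4.55% and 0.757% of genes tested, 5.3% in all), and 366 higher and 143 lower with 11 libraries (2.01% and 0.785%, 2.79% in all). DESeq2 called 38 higher and 0 lower with 12 libraries, and 5 higher and 1 lower with 11. The median interaction over all genes was 0.02 with 11 libraries and 0.06 with 12, and the median absolute value was 0.24 with 11 and 0.38 with 12. Only 35.7% of genes with 11 libraries, and 24.8% with 12, had a 95% interval of the interaction that lay wholly within 1 log2 unit of 0. For the other genes the interval reached past a 2-fold difference between the genotypes' responses, so the absence of calls does not show that the genotypes responded alike.

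The 2 drug differences that make up the interaction, MS-275 minus vehicle in log2 units, had median absolute values over all genes of 0.73 in Runx2+/- and 0.77 in WT with 11 libraries. With 11 libraries, 3367 genes were higher and 2588 lower with MS-275 in Runx2+/- (18.5% and 14.2% of genes tested), and 4040 were higher and 4440 lower in WT (22.2% and 24.4%). With 12 libraries, 0 genes were called in Runx2+/- in either direction, 3782 had an unadjusted p under 0.05, and DESeq2 called 857 higher and 423 lower. In WT the 12-library fit called 1738 higher and 1676 lower (9.67% and 9.33%). Of the genes called with 11 libraries, 5163 were called in both genotypes, which is 86.7% of those called in Runx2+/- and 60.9% of those called in WT. Only Tecrl, a gene of striated muscle described below, was called in both with opposite signs. Across genes the log2 differences in Runx2+/- and in WT had a Pearson correlation of 0.89 and a slope of 0.86 with 11 libraries, against 0.71 and 0.33 with 12. Genes are not independent replicates, and both axes share the scaling of the libraries. The counts of calls leaned on single libraries. Leaving out replicate 1 of Runx2+/- MS-275 as well, so that 1 treated library stood for the group and was assumed to vary like the others, left 345 higher and 191 lower in Runx2+/-. Leaving out replicate 1 or replicate 2 of Runx2+/- vehicle gave 1496 higher and 1238 lower, or 1546 higher and 1237 lower, and leaving out replicate 3 of WT vehicle gave 3581 higher and 4227 lower. Scaling by library size alone, without the TMM factors, shifted the median drug difference of all genes to −0.98 in Runx2+/- and −0.96 in WT with 11 libraries, and it turned the split in Runx2+/- to 784 higher and 8755 lower. The WT calls of the 12-library fit were 526 higher and 7009 lower under that scaling. They were 0 in both directions when any 1 library of WT MS-275, replicate 1 or 2 of either vehicle group, or replicate 2 of Runx2+/- MS-275 was left out. They were 2539 higher and 3062 lower without replicate 3 of WT vehicle, 2832 and 2746 without replicate 1 of Runx2+/- MS-275, and 954 and 1067 without replicate 3 of Runx2+/- vehicle.

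**Figure D1:**
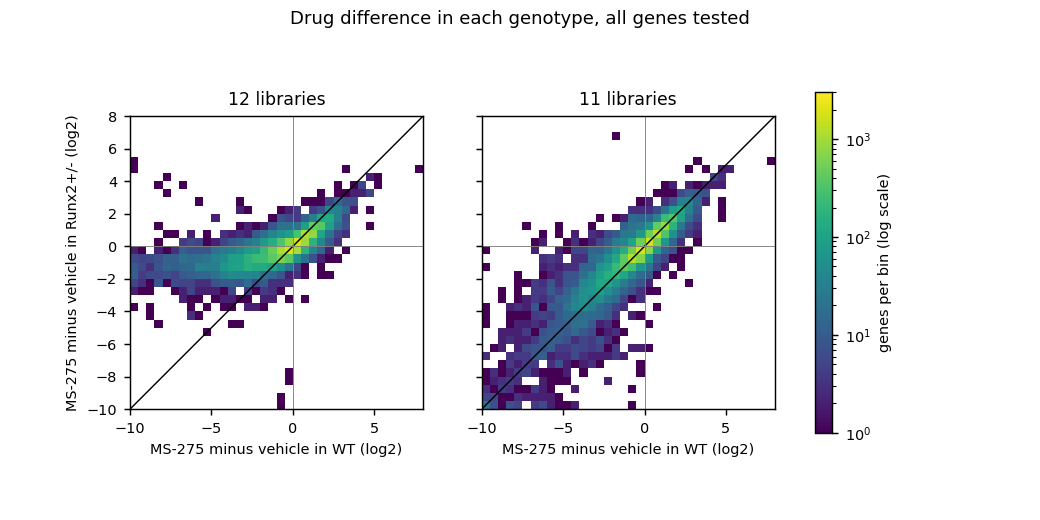
Number of genes (colour, log scale) in bins of 0.5 log2 units, by the MS-275 minus vehicle difference in WT (horizontal axis, log2) and in Runx2+/- (vertical axis, log2), with 12 libraries on the left and 11 on the right, and the line of equal difference in black. With 11 libraries the genes lie along the line (slope 0.86), and with 12 those far below 0 in WT lie near −1 in Runx2+/- (slope 0.33); values beyond −10 or 8 are drawn in the outermost bins.

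The 25 lists hold genes of cell types, tissues and pathways, and 1 of those tissues, the lens, is not part of the calvaria. For several lists the sign and size of the median interaction depended on replicate 3 of Runx2+/- MS-275, and for others far less. Bone-resorbing and bone-forming genes had negative medians in both fits: −1.03 for 20 osteoclast genes with 11 libraries and −1.44 with 12, and −0.61 for 31 osteoblast and bone matrix genes with 11 and −0.98 with 12. Skeletal muscle genes had positive medians in both, 1.86 with 11 libraries and 2.08 with 12 over 23 genes. Epidermal genes had a median of 0.38 with 11 libraries and 6.35 with 12 over 22 genes, and lens genes had −1.27 with 11 and 5.78 with 12 over 16 genes. No member of any list passed the adjusted test, so these medians describe the lists and do not call them changed. In whole tissue, fewer cells of a type and less RNA per cell cannot be told apart.

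**Figure D2:**
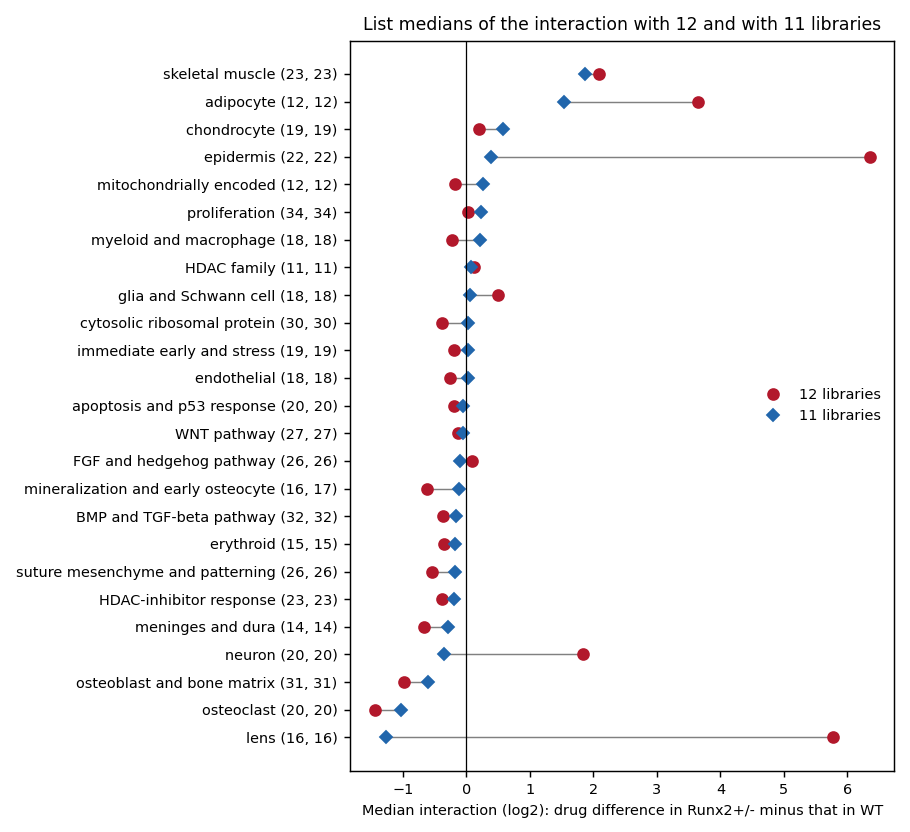
Median interaction (log2, horizontal axis) of each of 25 gene lists, with 12 libraries as red circles and 11 libraries as blue diamonds; the numbers after each name are the genes tested in the 12-library and the 11-library fit. Osteoclast (−1.03 with 11 libraries and −1.44 with 12) and osteoblast (−0.61 and −0.98) medians lie below 0 in both fits, skeletal muscle (1.86 and 2.08) above 0 in both, and lens and neuron medians lie on opposite sides of 0.

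Runx2 itself (chromosome 17, 44495987 to 44814797, minus strand, GRCm38), the gene whose copy number differs between the genotypes, had 84.1, 93.5 and 34.1 CPM in Runx2+/- MS-275, 65.3, 32.8 and 58.1 in Runx2+/- vehicle, 111, 131 and 88.2 in WT MS-275 and 45.5, 42.4 and 46.1 in WT vehicle, where CPM are read counts scaled to the size of the library with TMM factors. The WT libraries separated by treatment, and replicates 1 and 2 of Runx2+/- MS-275 were above all Runx2+/- vehicle libraries, while replicate 3 was close to the lowest of them. With 11 libraries Runx2 rose with MS-275 in both genotypes, by 0.77 log2 (SE 0.27, adjusted p = 0.0495) in Runx2+/- and 1.30 log2 (SE 0.24, adjusted p = 0.00441) in WT. Its interaction was −0.53 log2 (SE 0.36, 95% interval −1.34 to 0.28) with 11 libraries and −0.86 (SE 0.51) with 12. Reads over the gene do not tell an intact from a deleted copy, since the deleted stretch is not given.

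With 11 libraries most osteoblast genes rose with MS-275 in both genotypes, and 28 of 31 had a negative interaction (30 of 31 with 12), against 52.5% of all genes on the positive side with 11 and 54.5% with 12. With 11 libraries 20 of the 31 were called higher in Runx2+/- and 28 in WT, with median differences of 1.57 and 2.23, against 18.5% and 22.2% of all genes called higher, and 0 were called lower in either. With 12 libraries 0 were called in Runx2+/- and 18 were called higher in WT, against 0% and 9.67% of all genes. With 1 further library left out the median interaction of the list stayed negative. It ranged from −0.86 to −0.35 with 11 libraries, the latter without replicate 1 of Runx2+/- vehicle, and from −1.57 to −0.61 with 12. The list summed to 90931 and 58336 CPM in replicates 1 and 2 of Runx2+/- MS-275 and 6929 CPM in replicate 3, with 12207 to 29753 CPM across Runx2+/- vehicle libraries. In WT it summed to 88394 to 111018 CPM with MS-275 and 15195 to 24088 CPM with vehicle. Osterix (Sp7), the transcription factor downstream of RUNX2, had 100, 80.0 and 20.2 CPM in Runx2+/- MS-275, 75.1, 25.5 and 42.4 in Runx2+/- vehicle, 202, 252 and 154 in WT MS-275 and 50.6, 31.6 and 70.3 in WT vehicle. All 3 WT MS-275 libraries were above every other library. Replicates 1 and 2 of Runx2+/- MS-275 were above all Runx2+/- vehicle libraries, replicate 2 only just. The interaction of Sp7 was −1.08 log2 (SE 0.60, 95% interval −2.42 to 0.25) with 11 libraries and −1.51 (SE 0.79) with 12. Tissue-nonspecific alkaline phosphatase (Alpl), which frees phosphate for mineral, had 163, 152 and 31.2 CPM in Runx2+/- MS-275, 129.7, 45.0 and 73.4 in Runx2+/- vehicle, 382, 387 and 196 in WT MS-275 and 87.2, 60.0 and 97.8 in WT vehicle. Again all 3 WT MS-275 libraries were above every other library. Its interaction was −1.05 log2 (SE 0.58, 95% interval −2.35 to 0.25) with 11 libraries and −1.50 (SE 0.81) with 12. Alpl rose in WT by 1.98 log2 (SE 0.40, adjusted p = 0.00555), and the difference in Runx2+/- was 0.93 log2 (SE 0.42, adjusted p = 0.109), which did not pass. Without replicate 1 of Runx2+/- vehicle the 11-library interaction was −0.65 for Sp7 and −0.63 for Alpl.

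Osteocalcin (Bglap), a secreted bone protein whose reads may be shared with the near-identical Bglap2, had 202, 79.3 and 2.09 CPM in Runx2+/- MS-275, 6.57, 2.89 and 8.61 in Runx2+/- vehicle, 147, 178 and 188 in WT MS-275 and 4.03, 3.11 and 6.28 in WT vehicle. Every MS-275 library other than replicate 3 of Runx2+/- was above every vehicle library, and that replicate was below them all. Bglap rose by 4.55 log2 (SE 0.51, adjusted p = 0.00159) in Runx2+/- and 5.25 log2 (SE 0.51, adjusted p = 0.000491) in WT with 11 libraries, and its interaction was −0.70 log2 (SE 0.65, 95% interval −2.16 to 0.76) with 11 libraries and −1.28 (SE 1.41) with 12. Bone sialoprotein (Ibsp), a mineral-nucleating matrix protein, had 17980, 8952 and 376 CPM in Runx2+/- MS-275, 1212, 328 and 459.7 in Runx2+/- vehicle, 11020, 15360 and 16860 in WT MS-275 and 794, 453 and 976 in WT vehicle. The treated libraries of the genotypes overlapped, apart from replicate 3 of Runx2+/-, which lay within the vehicle range. Ibsp had an interaction of 0.05 log2 (SE 0.81, 95% interval −1.74 to 1.85) with 11 libraries and −0.51 (SE 1.38) with 12, and osteopontin (Spp1), another acidic matrix protein, had one of −0.07 log2 (SE 0.86, 95% interval −1.99 to 1.85) with 11 libraries and −0.65 (SE 1.58) with 12. With 11 libraries the sign turned for Ibsp under 8 of the alternatives tried and for Spp1 under 7. Collagen I (Col1a1), the main fibre of bone, had an interaction of −0.69 log2 (SE 0.84, 95% interval −2.57 to 1.18) with 11 libraries and −1.20 (SE 1.15) with 12, and Dlx5, a homeodomain activator of Runx2, had one of −0.61 log2 (SE 0.31, 95% interval −1.29 to 0.07) with 11 libraries and −0.76 (SE 0.32) with 12. Without replicate 1 of Runx2+/- vehicle the 11-library values were −0.03 for Col1a1 and −0.46 for Dlx5. Mmp13, the collagenase of osteoblasts and hypertrophic chondrocytes, had the lowest interaction in the list at −2.11 log2 (SE 1.01, 95% interval −4.37 to 0.14) with 11 libraries and −2.60 (SE 1.16) with 12. Periostin (Postn), a matrix protein of periosteum, was positive in both fits, at 0.50 with 11 libraries and 0.06 with 12.

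Of the genes of mineralization and the early osteocyte, 9 of 17 were called higher with MS-275 in Runx2+/- and 12 in WT with 11 libraries, and 0 lower, where 18.5% and 22.2% of all genes were called higher. The 9 include Fgf23, described below, which passed the filter on low counts only with 11 libraries. It passed through the group where it is high, so its call carries no weight. The median interaction of the list was −0.12 with 11 libraries over 17 genes, Fgf23 among them, and −0.62 with 12 over 16 genes. The 11-library median turned to 0.01 when replicate 2 of Runx2+/- MS-275 was also left out. Phex, the endopeptidase lost in X-linked hypophosphatemia, had 630.1, 309.9 and 19.4 CPM in Runx2+/- MS-275, 61.4, 26.8 and 43.2 in Runx2+/- vehicle, 425, 500 and 463 in WT MS-275 and 37.7, 30.3 and 44.2 in WT vehicle. Apart from replicate 3 of Runx2+/-, the treated libraries of both genotypes overlapped and lay above all vehicle libraries. Its interaction was −0.20 log2 (SE 0.49, 95% interval −1.31 to 0.90) with 11 libraries and −0.76 (SE 1.13) with 12, and that of Enpp1, which makes the mineral inhibitor pyrophosphate, was −0.07 log2 (SE 0.42, 95% interval −1.01 to 0.87) with 11 libraries and −0.59 (SE 0.89) with 12. The sign with 11 libraries turned for both genes when replicate 1 of Runx2+/- vehicle or replicate 2 of Runx2+/- MS-275 was left out. Dmp1, a phosphoprotein of osteocytes, had 561, 256 and 10.7 CPM in Runx2+/- MS-275, 68.9, 18.95 and 34.4 in Runx2+/- vehicle, 167, 176 and 95.9 in WT MS-275 and 28.7, 24.3 and 33.5 in WT vehicle. Replicates 1 and 2 of Runx2+/- MS-275 were above all 3 WT MS-275 libraries. The interaction of Dmp1 was 0.98 log2 (SE 0.68, 95% interval −0.53 to 2.50) with 11 libraries and 0.42 (SE 1.30) with 12, and the sign with 12 turned without replicate 1 of that group and with limma-voom. Mepe, a matrix phosphoglycoprotein of osteocytes, was likewise highest in these 2 libraries, with 48.1, 11.9 and 0.131 CPM in Runx2+/- MS-275, 1.16, 0.388 and 0.459 in Runx2+/- vehicle, 4.49, 7.53 and 10.5 in WT MS-275 and 0.439, 0.577 and 1.38 in WT vehicle. Its interaction was 2.25 log2 (SE 0.97, 95% interval 0.09 to 4.41) with 11 libraries and 1.67 (SE 1.75) with 12. Mmp13, Postn and Mepe were picked out of their lists after their values were seen.

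**Figure D3:**
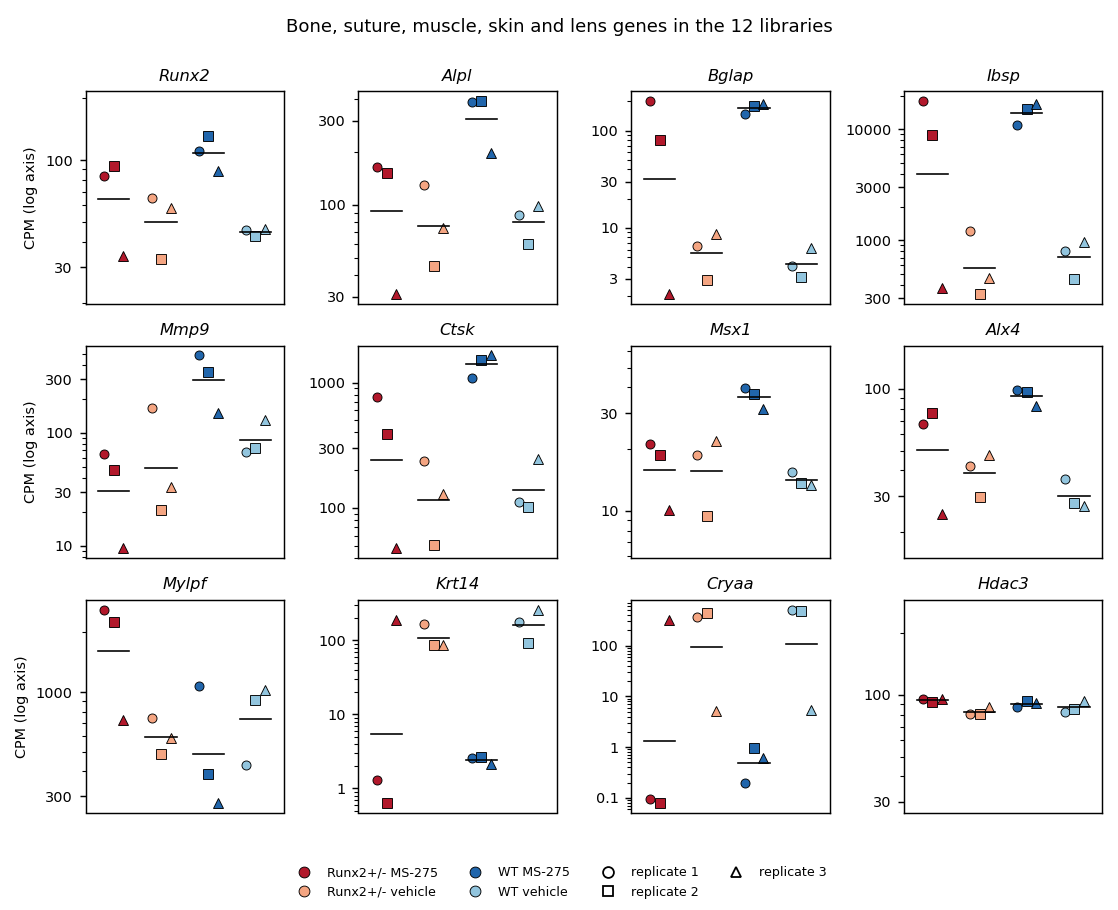
Level (CPM, log axis) of 12 genes in each library, by group and replicate, with the geometric mean of each group as a black line. Replicate 3 of Runx2+/- MS-275 lies with or near the vehicle libraries for Bglap, Ibsp, Krt14 and Cryaa, while Hdac3 differs little between libraries.

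Osteoclast genes had negative interactions, 20 of 20 with 11 libraries and 19 of 20 with 12. Of all genes, 52.5% and 54.5% were positive. Among the osteoclast genes 2 of 20 and 5 of 20 had an unadjusted p under 0.05, all negative, against 0.785% and 0.757% of all genes. The median did not change sign under any alternative tried, and ranged with 1 further library left out from −1.54 to −0.58 with 11 libraries, and from −1.82 to −0.91 with 12. With MS-275 1 gene was called higher (Ctsk) and 1 lower (Src, named after its values were seen) in Runx2+/-, while 12 of 20 were called higher in WT, where 22.2% of all genes were. In Runx2+/- the shares of all genes called were 18.5% higher and 14.2% lower. The 20 genes summed to 1237 and 741 CPM in replicates 1 and 2 of Runx2+/- MS-275 and 299 CPM in replicate 3, with 319 to 834 across Runx2+/- vehicle libraries. In WT they summed to 2451 to 2702 CPM with MS-275 and 482 to 796 CPM with vehicle. Cathepsin K (Ctsk), the collagen-degrading protease of osteoclasts, had 773, 391 and 47.4 CPM in Runx2+/- MS-275, 237, 50.4 and 129 in Runx2+/- vehicle, 1095, 1512 and 1650 in WT MS-275 and 112, 101 and 244 in WT vehicle. All WT MS-275 libraries exceeded all others. Ctsk rose by 2.07 log2 (SE 0.60, adjusted p = 0.0283) in Runx2+/- and 3.22 log2 (SE 0.59, adjusted p = 0.00398) in WT, with an interaction of −1.16 log2 (SE 0.82, 95% interval −2.99 to 0.68) with 11 libraries and −1.68 (SE 1.15) with 12. Tartrate-resistant acid phosphatase (Acp5) had 96.2, 38.9 and 10.0 CPM in Runx2+/- MS-275, 88.0, 9.04 and 21.7 in Runx2+/- vehicle, 306, 282 and 235 in WT MS-275 and 35.9, 35.6 and 70.8 in WT vehicle, with WT MS-275 again above every other library. Its interaction was −1.76 log2 (SE 1.06, 95% interval −4.12 to 0.60) with 11 libraries and −2.24 (SE 1.18) with 12. The gelatinase Mmp9 had 65.5, 47.0 and 9.49 CPM in Runx2+/- MS-275, 168, 20.8 and 33.0 in Runx2+/- vehicle, 486, 349 and 149.7 in WT MS-275 and 68.4, 73.0 and 131 in WT vehicle. Replicate 1 of Runx2+/- vehicle was above every Runx2+/- MS-275 library and above replicate 3 of WT MS-275. Its interaction was −2.25 log2 (SE 1.10, 95% interval −4.70 to 0.21) with 11 libraries and −2.72 (SE 1.19) with 12. Leaving out replicate 1 of Runx2+/- vehicle moved the 11-library values to −0.58 for Ctsk, −0.47 for Acp5 and −0.86 for Mmp9.

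Siglec15, a sialic acid receptor of osteoclast precursors, was among the 10 lowest by p in the 12-library fit, with 0.279, 0.160 and 0.0435 CPM in Runx2+/- MS-275, 0.971, 0.301 and 0.306 in Runx2+/- vehicle, 2.41, 1.39 and 0.690 in WT MS-275 and 0.279, 0.231 and 0.494 in WT vehicle. The 3 Runx2+/- MS-275 libraries held 3 counts or fewer, and the only 2 libraries above 1 CPM were of WT MS-275. The interaction was −3.40 log2 (SE 1.05, 95% interval −5.75 to −1.06) with 11 libraries and −3.97 (SE 1.06) with 12 (unadjusted p = 0.00912 with 11 libraries and 0.00349 with 12). The calcitonin receptor (Calcr), a marker of mature osteoclasts picked after its values were seen, had 3.07, 1.92 and 0.914 CPM in Runx2+/- MS-275, 3.38, 3.32 and 1.02 in Runx2+/- vehicle, 8.33, 7.04 and 8.28 in WT MS-275 and 2.31, 2.60 and 1.63 in WT vehicle. The WT MS-275 libraries did not overlap those of any other group. Its interaction was −1.90 log2 (SE 0.66, 95% interval −3.38 to −0.43) with 11 libraries and −2.26 (SE 0.73) with 12 (unadjusted p = 0.0166 with 11 libraries and 0.0106 with 12). The ligand that drives osteoclast formation, RANKL (Tnfsf11), had 4.46, 4.15 and 0.783 CPM in Runx2+/- MS-275, 3.65, 0.947 and 1.38 in Runx2+/- vehicle, 9.70, 14.8 and 10.9 in WT MS-275 and 1.72, 1.56 and 3.02 in WT vehicle. In WT MS-275 every library was above all others. Tnfsf11 rose in WT, by 2.49 log2 (SE 0.50, adjusted p = 0.00538), while in Runx2+/- the difference was 1.11 log2 (SE 0.53, adjusted p = 0.124). Its interaction was −1.38 log2 (SE 0.73, 95% interval −3.0 to 0.25) with 11 libraries and −1.85 (SE 0.92) with 12. The decoy receptor osteoprotegerin (Tnfrsf11b), which binds RANKL and holds back osteoclasts, rose in both genotypes, by 2.45 log2 (SE 0.53, adjusted p = 0.0101) in Runx2+/- and 2.56 log2 (SE 0.50, adjusted p = 0.00499) in WT, with an interaction of −0.12 log2 (SE 0.71, 95% interval −1.70 to 1.47) with 11 libraries and −0.64 (SE 1.05) with 12. The sign of the Tnfrsf11b value with 11 libraries turned under 5 of the alternatives. Macrophage genes, from cells of the lineage that osteoclasts arise from, had a median interaction of 0.22 with 11 libraries and −0.23 with 12 over 18 genes, and the first turned to −0.46 without replicate 3 of WT vehicle. Of these, 10 were called higher with MS-275 in Runx2+/- and 14 in WT with 11 libraries, against 18.5% and 22.2% of all genes.

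**Figure D4:**
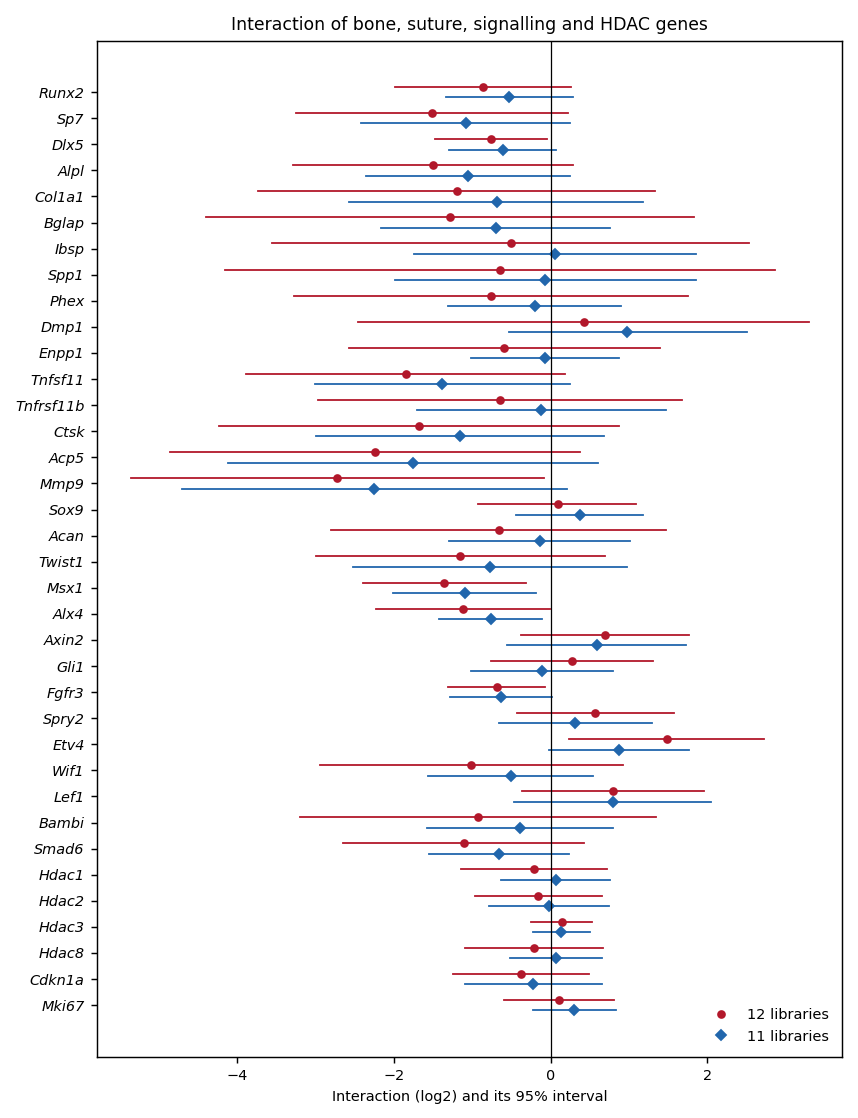
Interaction (log2, horizontal axis) and its 95% interval for 36 bone, suture, signalling, HDAC and cell cycle genes, with 12 libraries in red and 11 in blue. The intervals of Msx1 and Alx4 lie below 0 in both fits before any adjustment, that of Hdac3 is the narrowest, and most others span 0.

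Genes of suture mesenchyme and skull patterning had a median interaction of −0.18 with 11 libraries and −0.54 with 12 over 26 genes. The median with 11 libraries turned to 0.07 without replicate 3 of Runx2+/- vehicle. Msx1 and Alx4, homeodomain factors of the skull vault, were the 2 members with an unadjusted p under 0.05 in both fits. Msx1 (chromosome 5, 37820485 to 37824583, minus strand, GRCm38) had 21.2, 18.7 and 10.1 CPM in Runx2+/- MS-275, 18.6, 9.39 and 22.0 in Runx2+/- vehicle, 40.0, 37.0 and 31.4 in WT MS-275 and 15.5, 13.7 and 13.4 in WT vehicle. The WT MS-275 libraries were above all others, and the 2 Runx2+/- groups overlapped throughout. The interaction was −1.09 log2 (SE 0.41, 95% interval −2.01 to −0.18) with 11 libraries and −1.36 (SE 0.47) with 12 (unadjusted p = 0.0236 with 11 libraries and 0.015 with 12). Msx1 rose in WT by 1.35 log2 (SE 0.27, adjusted p = 0.00565), and the difference in Runx2+/- was 0.26 log2 (SE 0.30, adjusted p = 0.513). Alx4 (chromosome 2, 93642384 to 93681339, plus strand, GRCm38) had 67.2, 76.3 and 24.5 CPM in Runx2+/- MS-275, 42.2, 29.6 and 47.4 in Runx2+/- vehicle, 99.0, 96.9 and 82.6 in WT MS-275 and 36.3, 27.7 and 26.9 in WT vehicle. Replicates 1 and 2 of Runx2+/- MS-275 lay above all vehicle libraries and below all WT MS-275 libraries, and replicate 3 lay below every vehicle library. Alx4 rose in both genotypes, by 0.85 log2 (SE 0.21, adjusted p = 0.0172) in Runx2+/- and 1.61 log2 (SE 0.20, adjusted p = 0.000962) in WT, with an interaction of −0.76 log2 (SE 0.29, 95% interval −1.42 to −0.11) with 11 libraries and −1.12 (SE 0.50) with 12. Twist1, the basic helix-loop-helix factor that restrains RUNX2 in sutures, had an interaction of −0.77 log2 (SE 0.78, 95% interval −2.52 to 0.97) with 11 libraries and −1.15 (SE 0.83) with 12. En1, a homeodomain factor of the frontal and parietal bones picked after its values were seen, was at −1.25 with 11 libraries and −1.68 with 12.

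Chondrocyte genes had a positive median, 0.58 with 11 libraries and 0.20 with 12 over 19 genes. Of the 19, 14 and 12 were positive, against 52.5% and 54.5% of all genes. With 11 libraries the median ranged from 0.19 to 0.92 when 1 further library was left out. With 12 libraries it turned sign or rounded to 0 under 7 of the alternatives. With 11 libraries 9 of 19 were called higher with MS-275 in each genotype, 0 lower in Runx2+/- and 1 lower in WT, against 18.5% of all genes higher in Runx2+/- and 22.2% in WT. The master regulator Sox9 had an interaction of 0.37 log2 (SE 0.36, 95% interval −0.44 to 1.18) with 11 libraries and 0.09 (SE 0.45) with 12, collagen II (Col2a1) one of 0.93 log2 (SE 0.96, 95% interval −1.22 to 3.08) with 11 libraries and 0.43 (SE 1.15) with 12, and aggrecan (Acan) one of −0.14 log2 (SE 0.51, 95% interval −1.29 to 1.01) with 11 libraries and −0.66 (SE 0.96) with 12. All 3 intervals include 0, and single libraries turned the sign of Acan with 11 libraries and of Sox9 and Col2a1 with 12.

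Among signalling genes, the pathways' medians were near 0 with 11 libraries: −0.10 for FGF and hedgehog genes, −0.05 for WNT genes and −0.17 for BMP and TGF-beta genes, against 0.08, −0.14 and −0.37 with 12. The signs for the FGF and hedgehog list and for the WNT list turned under 4 alternatives each with 11 libraries. The FGF receptor Fgfr3, a brake on bone growth, had 44.2, 43.8 and 38.7 CPM in Runx2+/- MS-275, 50.8, 35.5 and 29.3 in Runx2+/- vehicle, 72.5, 70.8 and 60.3 in WT MS-275 and 41.5, 38.2 and 35.6 in WT vehicle. All 3 libraries of WT MS-275 exceeded the other 9. Fgfr3 rose in WT by 0.82 log2 (SE 0.19, adjusted p = 0.00968), and the difference in Runx2+/- was 0.19 log2 (SE 0.21, adjusted p = 0.496). The interaction was −0.63 log2 (SE 0.29, 95% interval −1.28 to 0.02) with 11 libraries and −0.69 (SE 0.28) with 12. The ETS factor Etv4 and the inhibitor Spry2 are induced by FGF signalling. Etv4 had 2.79, 4.31 and 9.05 CPM in Runx2+/- MS-275, 10.1, 10.3 and 7.64 in Runx2+/- vehicle, 2.60, 1.72 and 1.64 in WT MS-275 and 9.09, 9.80 and 10.1 in WT vehicle, so that replicates 1 and 2 of Runx2+/- MS-275 lay above every WT MS-275 library. Etv4 fell by 1.40 log2 (SE 0.31, adjusted p = 0.0108) in Runx2+/- and fell by 2.27 log2 (SE 0.28, adjusted p = 0.000912) in WT, with an interaction of 0.87 log2 (SE 0.40, 95% interval −0.02 to 1.76) with 11 libraries and 1.48 (SE 0.56) with 12. Spry2 fell by 1.27 log2 (SE 0.34, adjusted p = 0.0213) in Runx2+/- and fell by 1.58 log2 (SE 0.30, adjusted p = 0.00439) in WT, and its interaction was 0.31 log2 (SE 0.44, 95% interval −0.66 to 1.29) with 11 libraries and 0.57 (SE 0.45) with 12, with a sign that turned with 11 libraries without replicate 3 of WT vehicle or replicate 2 of Runx2+/- MS-275.

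The secreted WNT inhibitor Wif1 rose in both genotypes, by 2.42 log2 (SE 0.35, adjusted p = 0.00281) in Runx2+/- and 2.93 log2 (SE 0.33, adjusted p = 0.000736) in WT, and its interaction was −0.51 log2 (SE 0.47, 95% interval −1.56 to 0.54) with 11 libraries and −1.01 (SE 0.87) with 12. The WNT target Axin2 fell by 1.16 log2 (SE 0.35, adjusted p = 0.0234) in WT and differed by −0.57 log2 (SE 0.39, adjusted p = 0.26) in Runx2+/-, with an interaction of 0.59 log2 (SE 0.51, 95% interval −0.55 to 1.73) with 11 libraries and 0.69 (SE 0.48) with 12, whose 11-library sign turned without replicate 2 of Runx2+/- MS-275. Lrp4, which anchors sclerostin, was the one gene of the WNT list with an unadjusted p under 0.05 in both fits. It had 42.4, 59.7 and 52.7 CPM in Runx2+/- MS-275, 83.7, 56.8 and 56.2 in Runx2+/- vehicle, 101, 102 and 67.1 in WT MS-275 and 62.5, 53.3 and 64.6 in WT vehicle. Replicates 1 and 2 of WT MS-275 were above every other library. Its interaction was −0.94 log2 (SE 0.34, 95% interval −1.71 to −0.18) with 11 libraries and −0.93 (SE 0.32) with 12. In the BMP pathway the pseudoreceptor Bambi rose by 3.35 log2 (SE 0.40, adjusted p = 0.00197) in Runx2+/- and 3.74 log2 (SE 0.39, adjusted p = 0.000575) in WT, with an interaction of −0.39 log2 (SE 0.53, 95% interval −1.58 to 0.79) with 11 libraries and −0.93 (SE 1.03) with 12. The BMP antagonist noggin (Nog) had 4.18, 5.43 and 1.78 CPM in Runx2+/- MS-275, 5.32, 3.75 and 4.02 in Runx2+/- vehicle, 10.1, 8.84 and 9.75 in WT MS-275 and 4.35, 4.73 and 5.24 in WT vehicle. Only WT MS-275 stood above the other groups. Nog rose in WT by 1.00 log2 (SE 0.23, adjusted p = 0.00832) while the difference in Runx2+/- was 0.14 log2 (SE 0.25, adjusted p = 0.68), and its interaction was −0.86 log2 (SE 0.34, 95% interval −1.62 to −0.10) with 11 libraries and −1.21 (SE 0.52) with 12. The type I receptor Bmpr1b had 7.71, 13.7 and 17.8 CPM in Runx2+/- MS-275, 16.8, 19.2 and 19.5 in Runx2+/- vehicle, 5.08, 3.36 and 3.54 in WT MS-275 and 18.5, 16.4 and 12.6 in WT vehicle. All 3 libraries of WT MS-275 were below the other 9. Bmpr1b fell by 1.98 log2 (SE 0.27, adjusted p = 0.00137) in WT, with a difference of −0.79 log2 (SE 0.30, adjusted p = 0.0641) in Runx2+/- and an interaction of 1.20 log2 (SE 0.39, 95% interval 0.33 to 2.07) with 11 libraries and 1.48 (SE 0.43) with 12. Lrp4, Nog and Bmpr1b were picked after their values were seen.

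The HDAC family, which holds the targets of the drug, had interactions close to 0. Its 11 genes had values of −0.14 to 0.30 with 11 libraries, with a median of 0.07, and of −0.21 to 0.63 with 12, with a median of 0.12. Both medians turned sign or rounded to 0 under 2 alternatives. Hdac3, a class I enzyme, had 96.0, 92.1 and 95.1 CPM in Runx2+/- MS-275, 80.5, 81.1 and 87.2 in Runx2+/- vehicle, 86.9, 92.9 and 91.2 in WT MS-275 and 82.9, 85.4 and 93.7 in WT vehicle. The Runx2+/- groups did not overlap, the WT groups did, and the 12 libraries spanned 80.5 to 96.0 CPM. Its interaction was 0.13 log2 (SE 0.16, 95% interval −0.23 to 0.50) with 11 libraries and 0.14 (SE 0.18) with 12. Hdac1, of the same class, had 187, 130.4 and 75.6 CPM in Runx2+/- MS-275, 75.5, 67.0 and 94.0 in Runx2+/- vehicle, 126, 149 and 167 in WT MS-275 and 75.5, 62.8 and 90.9 in WT vehicle. It rose in both genotypes, by 1.01 log2 (SE 0.23, adjusted p = 0.012) in Runx2+/- and 0.94 log2 (SE 0.21, adjusted p = 0.00781) in WT, with an interaction of 0.07 log2 (SE 0.31, 95% interval −0.63 to 0.76) with 11 libraries and −0.21 (SE 0.42) with 12. Hdac8, the class I enzyme that acts outside the large corepressor complexes, rose by 0.94 log2 (SE 0.20, adjusted p = 0.00884) in Runx2+/- and 0.87 log2 (SE 0.18, adjusted p = 0.00585) in WT, with an interaction of 0.07 log2 (SE 0.27, 95% interval −0.52 to 0.66) with 11 libraries and −0.21 (SE 0.40) with 12. For Hdac1 and Hdac8 the sign turned with 1 library in either fit.

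Of 23 genes known to respond to HDAC inhibitors, 4 were called higher and 2 lower in Runx2+/- and 7 higher and 4 lower in WT with 11 libraries. Of all genes 18.5% were higher and 14.2% lower in Runx2+/-, and 22.2% higher and 24.4% lower in WT, so these counts are near those of all genes. Their median interaction was −0.20 with 11 libraries, turning to 0.03 without replicate 3 of Runx2+/- vehicle, and −0.38 with 12. The linker histone gene Hist1h1c, whose counting may share reads with other histone genes, rose by 1.52 log2 (SE 0.25, adjusted p = 0.00413) in Runx2+/- and 1.75 log2 (SE 0.23, adjusted p = 0.00124) in WT, with an interaction of −0.23 log2 (SE 0.34, 95% interval −0.98 to 0.52) with 11 libraries and −0.67 (SE 0.65) with 12. Sat1, an enzyme of polyamine breakdown, rose by 1.17 log2 (SE 0.34, adjusted p = 0.0293) in Runx2+/- and 1.31 log2 (SE 0.32, adjusted p = 0.0107) in WT, with an interaction of −0.14 log2 (SE 0.47, 95% interval −1.18 to 0.90) with 11 libraries and −0.45 (SE 0.55) with 12. The cell cycle inhibitor p21 (Cdkn1a) differed by 0.07 log2 (SE 0.29, adjusted p = 0.854) in Runx2+/- and 0.29 log2 (SE 0.26, adjusted p = 0.36) in WT, with an interaction of −0.22 log2 (SE 0.39, 95% interval −1.09 to 0.65) with 11 libraries and −0.38 (SE 0.39) with 12. Of 34 proliferation genes, 18 were called higher in Runx2+/- and 14 in WT with 11 libraries, with 0 and 1 lower, against 18.5% and 22.2% of all genes called higher. Their median interaction was 0.23 with 11 libraries, where 30 of 34 were positive against 52.5% of all genes, and 0.03 with 12. The median with 11 libraries turned to −0.07 without replicate 3 of WT vehicle and to −0.05 without replicate 1 of Runx2+/- MS-275. All 12 mitochondrially encoded genes were called higher in both genotypes with 11 libraries (18.5% and 22.2% of all genes), with median differences of 3.09 in Runx2+/- and 2.84 in WT, and their median interaction was 0.26 with 11 libraries, turning to −0.49 without replicate 1 of Runx2+/- MS-275, and −0.18 with 12. Mitochondrial genes took up 24.2%, 16.2% and 9.48% of the counts in replicates 1 to 3 of Runx2+/- MS-275 and 4.32% to 5.52% in Runx2+/- vehicle. In WT they took up 12.7% to 23.0% with MS-275 and 4.36% to 4.73% with vehicle. A fit without these genes again gave 0 interaction calls with 11 and with 12 libraries. Cytosolic ribosomal protein genes had a median of 0.03 with 11 libraries and −0.38 with 12 over 30 genes. The first turned sign or rounded to 0 under 11 alternatives.

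All 23 skeletal muscle genes had positive interactions in both fits, where 52.5% of all genes were positive with 11 libraries and 54.5% with 12. An unadjusted p under 0.05 was found for 6 of the 23 with 11 libraries and 11 with 12, against 2.01% and 4.55% of all genes. With 1 further library left out the median ranged from 1.38 to 2.92 with 11 libraries, and from 1.71 to 3.15 with 12. With 11 libraries 13 were called lower and 0 higher with MS-275 in WT, against 24.4% and 22.2% of all genes. In Runx2+/- 3 were called higher and 2 lower, near the 18.5% and 14.2% of all genes. The 23 genes summed to 5315 to 6993 CPM with MS-275 and 2325 to 7171 CPM with vehicle in Runx2+/-, and to 685 to 3646 CPM with MS-275 and 4182 to 7892 CPM with vehicle in WT. WT MS-275 was spread widely, with mean log2 levels of 4.93, 3.51 and 2.73 in replicates 1 to 3. The amount of muscle dissected with each calvaria was not tested.

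Fast skeletal myosin light chain (Mylpf) had 2592, 2243 and 723 CPM in Runx2+/- MS-275, 744, 491 and 588 in Runx2+/- vehicle, 1078, 391 and 278 in WT MS-275 and 433, 909 and 1021 in WT vehicle. Replicates 1 and 2 of Runx2+/- MS-275 were above all other libraries. It rose in Runx2+/- by 1.99 log2 (SE 0.55, adjusted p = 0.0237) and differed by −0.44 log2 (SE 0.50, adjusted p = 0.48) in WT, with an interaction of 2.43 log2 (SE 0.74, 95% interval 0.77 to 4.08) with 11 libraries and 2.04 (SE 0.85) with 12. The troponin subunit Tnni2 had 548, 511 and 178 CPM in Runx2+/- MS-275, 171, 125 and 139 in Runx2+/- vehicle, 247, 79.6 and 61.2 in WT MS-275 and 96.2, 236 and 234 in WT vehicle. The same 2 libraries were the highest. Its interaction was 2.41 log2 (SE 0.75, 95% interval 0.73 to 4.10) with 11 libraries and 2.05 (SE 0.82) with 12. Titin (Ttn), the spring of the sarcomere, fell by 2.43 log2 (SE 0.64, adjusted p = 0.0144) in WT and differed by −0.40 log2 (SE 0.68, adjusted p = 0.657) in Runx2+/-, with an interaction of 2.03 log2 (SE 0.90, 95% interval 0.01 to 4.04) with 11 libraries and 2.24 (SE 0.87) with 12. The myogenic factor Myog had 35.9, 30.3 and 26.9 CPM in Runx2+/- MS-275, 47.9, 20.4 and 19.1 in Runx2+/- vehicle, 28.3, 7.53 and 2.67 in WT MS-275 and 37.7, 34.4 and 58.0 in WT vehicle. Only replicates 2 and 3 of WT MS-275 were below 10 CPM. Its interaction was 1.93 log2 (SE 1.02, 95% interval −0.34 to 4.20) with 11 libraries and 1.84 (SE 0.95) with 12. Mylpf, Tnni2 and Ttn were named after their values were seen.

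For skin, lens, nerve and fat genes the 2 fits gave different values. Keratin 14 (Krt14), of basal keratinocytes, had 1.30, 0.638 and 189.6 CPM in Runx2+/- MS-275, 165, 85.5 and 87.7 in Runx2+/- vehicle, 2.60, 2.62 and 2.16 in WT MS-275 and 176, 92.4 and 259 in WT vehicle. The MS-275 libraries were all below 3 CPM except replicate 3 of Runx2+/-, which lay within the vehicle range. With 11 libraries Krt14 fell by 6.87 log2 (SE 0.63, adjusted p = 0.000971) in Runx2+/- and fell by 6.15 log2 (SE 0.48, adjusted p = 0.000239) in WT, and its interaction was −0.72 log2 (SE 0.69, 95% interval −2.27 to 0.83) with 11 libraries and 5.34 (SE 2.12) with 12. Crystallin alpha A (Cryaa), of the lens, had 0.0929, 0.0798 and 327 CPM in Runx2+/- MS-275, 369.7, 438 and 5.09 in Runx2+/- vehicle, 0.195, 0.982 and 0.604 in WT MS-275 and 509, 476 and 5.39 in WT vehicle. Here replicate 3 of each vehicle group also stood apart, at 5.09 CPM in Runx2+/- and 5.39 CPM in WT. The interaction was −2.35 log2 (SE 4.28, 95% interval −11.92 to 7.21) with 11 libraries and 7.83 (SE 3.55) with 12, so the sign turned with 1 library. The lens is not part of the calvaria, and whether eye tissue was in any sample was not tested.

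The 22 epidermal genes summed to 13.3 and 23.8 CPM in replicates 1 and 2 of Runx2+/- MS-275 and 2295 CPM in replicate 3, with 1456 to 3408 CPM across Runx2+/- vehicle libraries. In WT they summed to 16.0 to 25.2 CPM with MS-275 and 1683 to 4832 CPM with vehicle. Of them, 21 were called lower with MS-275 in each genotype with 11 libraries, against 14.2% of all genes in Runx2+/- and 24.4% in WT. Of the 22, Casp14, Krt2 and Sprr1b were at 0 in replicates 1 and 2 of Runx2+/- MS-275 and in WT MS-275. The desmosomal plaque protein desmoplakin (Dsp) had 1.39, 10.8 and 236 CPM in Runx2+/- MS-275, 391, 249.8 and 153 in Runx2+/- vehicle, 2.80, 1.56 and 0.604 in WT MS-275 and 436, 215 and 366 in WT vehicle, with replicate 2 of Runx2+/- MS-275 above the other low libraries. Its interaction was 2.21 log2 (SE 1.01, 95% interval −0.05 to 4.47) with 11 libraries and 5.98 (SE 1.90) with 12. Neuronal genes had a median of −0.35 with 11 libraries and 1.83 with 12 over 20 genes, and the 11-library sign turned without replicate 3 of WT MS-275, where it was 0.86. Adipocyte genes were positive in both fits, 12 of 12, where 52.5% of all genes were with 11 libraries and 54.5% with 12. Their median was 1.53 with 11 libraries and 3.65 with 12, and the first fell to 0.80 without replicate 2 of WT vehicle. The 12 genes summed to 313, 285 and 550.4 CPM in replicates 1 to 3 of Runx2+/- MS-275 and 139 to 173 CPM in Runx2+/- vehicle. In WT they summed to 225 to 282 CPM with MS-275 and 146 to 518 CPM with vehicle. Of the 12, 3 members (Adipoq, Plin1 and Ucp1) had no count in replicates 1 and 2 of Runx2+/- MS-275, and 1 (Plin1) had none in WT MS-275. The size of their fitted values with 11 libraries therefore depends on the prior count. Lipoprotein lipase (Lpl), picked after its values were seen, had 112, 113 and 115 CPM in Runx2+/- MS-275, 67.5, 47.6 and 52.7 in Runx2+/- vehicle, 90.4, 79.3 and 67.8 in WT MS-275 and 45.6, 118 and 102 in WT vehicle. The Runx2+/- groups did not overlap, while the WT groups did, with 1 WT vehicle library low and 2 high. Lpl rose in Runx2+/- by 1.01 log2 (SE 0.33, adjusted p = 0.0438) and differed by −0.16 log2 (SE 0.30, adjusted p = 0.671) in WT, with an interaction of 1.17 log2 (SE 0.45, 95% interval 0.16 to 2.18) with 11 libraries and 1.18 (SE 0.42) with 12.

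Beyond the lists, the genes with the smallest unadjusted interaction p are given here in 3 kinds, sorted after their values were seen, and none passed adjustment. The first kind was lower in WT MS-275 than in the other groups. Rasd2, a small GTPase of the striatum, had 0.464, 0.798 and 1.09 CPM in Runx2+/- MS-275, 1.76, 1.59 and 2.85 in Runx2+/- vehicle, 0, 0 and 0 in WT MS-275 and 1.40, 1.56 and 1.83 in WT vehicle. The WT MS-275 libraries held no count, while 3 counts, the number that a count of 0 still allows, correspond to 0.120 to 0.279 CPM in a library, and every library of the other groups was above that floor. The size of a fitted value against a group at 0 depends on the prior count, so none is printed; its unadjusted p was 0.000359 with 11 libraries and 0.000143 with 12. Prss41, a serine protease, also held no count in WT MS-275 and was at 0.186 to 0.696 CPM in Runx2+/- MS-275, 0.357 to 0.775 in Runx2+/- vehicle and 0.445 to 0.634 in WT vehicle; its lowest value, in replicate 1 of Runx2+/- MS-275, is under the floor of that library. The LIM homeodomain factor Isl1 (chromosome 13, 116298281 to 116309689, minus strand, GRCm38), of motor and sensory neurons, had 8.82, 5.11 and 33.4 CPM in Runx2+/- MS-275, 26.9, 34.3 and 16.7 in Runx2+/- vehicle, 0.521, 0.328 and 0.776 in WT MS-275 and 31.7, 24.9 and 7.96 in WT vehicle. All WT MS-275 libraries were below 1 CPM and all others above 5. With 11 libraries Isl1 fell by 1.90 log2 (SE 0.58, adjusted p = 0.0326) in Runx2+/- and fell by 5.30 log2 (SE 0.62, adjusted p = 0.00077) in WT, with an interaction of 3.40 log2 (SE 0.79, 95% interval 1.64 to 5.16) with 11 libraries and 4.59 (SE 1.05) with 12. The epithelial adhesion protein Epcam had 7.34, 39.2 and 32.0 CPM in Runx2+/- MS-275, 48.8, 44.3 and 45.4 in Runx2+/- vehicle, 4.04, 1.47 and 1.64 in WT MS-275 and 38.8, 35.5 and 38.3 in WT vehicle, with replicate 2 of Runx2+/- MS-275 near the vehicle level. Its interaction was 2.97 log2 (SE 0.78, 95% interval 1.22 to 4.71) with 11 libraries and 3.14 (SE 0.75) with 12.

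The second kind were genes of striated muscle with a positive interaction. Tecrl (chromosome 5, 83278145 to 83355195, minus strand, GRCm38), a reductase-like protein of heart and skeletal muscle, had 15.4, 16.2 and 7.53 CPM in Runx2+/- MS-275, 6.06, 5.08 and 5.50 in Runx2+/- vehicle, 3.78, 2.29 and 2.07 in WT MS-275 and 3.35, 7.50 and 4.65 in WT vehicle. The 3 Runx2+/- MS-275 libraries exceeded all Runx2+/- vehicle libraries, and the WT groups overlapped. Tecrl rose in Runx2+/- by 1.51 log2 (SE 0.36, adjusted p = 0.0141) and fell by 0.92 log2 (SE 0.34, adjusted p = 0.0477) in WT. The interaction was 2.43 log2 (SE 0.49, 95% interval 1.33 to 3.53) with 11 libraries and 2.15 (SE 0.56) with 12 (unadjusted p = 0.000636 with 11 libraries and 0.00297 with 12), and it stayed positive under every alternative tried. Troponin C of slow and cardiac muscle (Tnnc1) had 183, 165 and 62.2 CPM in Runx2+/- MS-275, 57.3, 34.1 and 23.1 in Runx2+/- vehicle, 62.4, 26.8 and 17.5 in WT MS-275 and 45.3, 48.7 and 57.9 in WT vehicle, with replicates 1 and 2 of Runx2+/- MS-275 above all other libraries. It rose in Runx2+/- by 2.19 log2 (SE 0.49, adjusted p = 0.0114) and differed by −0.51 log2 (SE 0.44, adjusted p = 0.356) in WT, with an interaction of 2.69 log2 (SE 0.66, 95% interval 1.22 to 4.17) with 11 libraries and 2.35 (SE 0.74) with 12. Lrrc39, a sarcomere M-band protein, had an interaction of 1.99 log2 (SE 0.47, 95% interval 0.94 to 3.05) with 11 libraries and 1.82 (SE 0.48) with 12, and the ADP-ribosyltransferase Art3 one of 1.95 log2 (SE 0.47, 95% interval 0.90 to 3.00) with 11 libraries and 1.67 (SE 0.54) with 12.

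The third kind were other genes whose drug difference was larger in 1 genotype. Of these, Chac1, Snx10, Ern1 and Gdf11 were called in only 1 genotype, and Atf5 was called in both. For Eya2 no drug call is given. A call in 1 genotype does not show a difference between them; the interaction is the test of that, and it did not pass. Chac1, an enzyme that degrades glutathione, had 1.21, 0.957 and 0.566 CPM in Runx2+/- MS-275, 0.740, 1.16 and 1.38 in Runx2+/- vehicle, 4.23, 7.94 and 7.25 in WT MS-275 and 1.32, 1.38 and 2.27 in WT vehicle. The WT MS-275 libraries did not overlap any other group. Chac1 rose in WT by 1.96 log2 (SE 0.38, adjusted p = 0.00486) and differed by −0.02 log2 (SE 0.44, adjusted p = 0.982) in Runx2+/-, with an interaction of −1.97 log2 (SE 0.59, 95% interval −3.29 to −0.66) with 11 libraries and −2.24 (SE 0.61) with 12. Snx10, a sorting nexin needed for osteoclast acid secretion, had 43.3, 25.1 and 23.1 CPM in Runx2+/- MS-275, 34.5, 30.8 and 24.9 in Runx2+/- vehicle, 70.4, 77.0 and 82.8 in WT MS-275 and 31.8, 38.5 and 28.4 in WT vehicle. Again the WT MS-275 libraries stood above all others. Its interaction was −1.04 log2 (SE 0.33, 95% interval −1.77 to −0.31) with 11 libraries and −1.21 (SE 0.35) with 12, with a rise in WT of 1.22 log2 (SE 0.22, adjusted p = 0.00375) and a difference of 0.18 log2 (SE 0.24, adjusted p = 0.568) in Runx2+/-. Eya2, a phosphatase and transcriptional cofactor of the Eyes absent family, had 21.1, 26.6 and 10.9 CPM in Runx2+/- MS-275, 25.6, 19.3 and 36.2 in Runx2+/- vehicle, 50.1, 37.7 and 36.5 in WT MS-275 and 20.7, 18.2 and 19.3 in WT vehicle. The WT groups did not overlap, and the Runx2+/- groups did. Its interaction was −1.27 log2 (SE 0.35, 95% interval −2.06 to −0.49) with 11 libraries and −1.57 (SE 0.45) with 12.

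Atf5 (chromosome 7, 44812256 to 44816658, minus strand, GRCm38), a stress-responsive bZIP factor, had the smallest p of the named genes with a negative interaction in the 11-library fit. Its levels were 14.7, 16.6 and 21.4 CPM in Runx2+/- MS-275, 56.6, 46.5 and 41.2 in Runx2+/- vehicle, 34.7, 29.8 and 27.5 in WT MS-275 and 43.0, 45.8 and 39.9 in WT vehicle. Within each genotype the MS-275 libraries lay below all vehicle libraries, and Runx2+/- MS-275 lay below WT MS-275 without overlap. With 11 libraries Atf5 fell by 1.62 log2 (SE 0.19, adjusted p = 0.00164) in Runx2+/- and fell by 0.48 log2 (SE 0.16, adjusted p = 0.0304) in WT, with an interaction of −1.14 log2 (SE 0.24, 95% interval −1.67 to −0.61) with 11 libraries and −0.97 (SE 0.27) with 12 (unadjusted p = 0.000778 with 11 libraries and 0.00409 with 12). With 12 libraries the drug difference in Runx2+/- was −1.45 log2 (SE 0.19, adjusted p = 0.181), and replicate 3 lay below all vehicle libraries like the others of its group. Ern1, the sensor of unfolded proteins in the endoplasmic reticulum, had 13.8, 15.7 and 21.6 CPM in Runx2+/- MS-275, 27.6, 22.9 and 28.1 in Runx2+/- vehicle, 24.2, 25.5 and 20.1 in WT MS-275 and 25.4, 23.4 and 23.2 in WT vehicle. It fell by 0.83 log2 (SE 0.17, adjusted p = 0.00884) in Runx2+/- and differed by −0.04 log2 (SE 0.15, adjusted p = 0.811) in WT. Its interaction was −0.78 log2 (SE 0.23, 95% interval −1.28 to −0.28) with 11 libraries and −0.57 (SE 0.28) with 12. Gdf11, a ligand of the TGF-beta family, had 15.6, 17.6 and 14.7 CPM in Runx2+/- MS-275, 25.3, 24.8 and 24.0 in Runx2+/- vehicle, 22.3, 25.1 and 23.6 in WT MS-275 and 24.5, 21.8 and 18.6 in WT vehicle, with the 3 Runx2+/- MS-275 libraries below all 9 others. Its interaction was −0.70 log2 (SE 0.21, 95% interval −1.18 to −0.22) with 11 libraries and −0.76 (SE 0.22) with 12, with a drug difference of −0.57 log2 (SE 0.16, adjusted p = 0.0256) in Runx2+/- and a difference of 0.13 log2 (SE 0.14, adjusted p = 0.461) in WT.

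**Figure D5:**
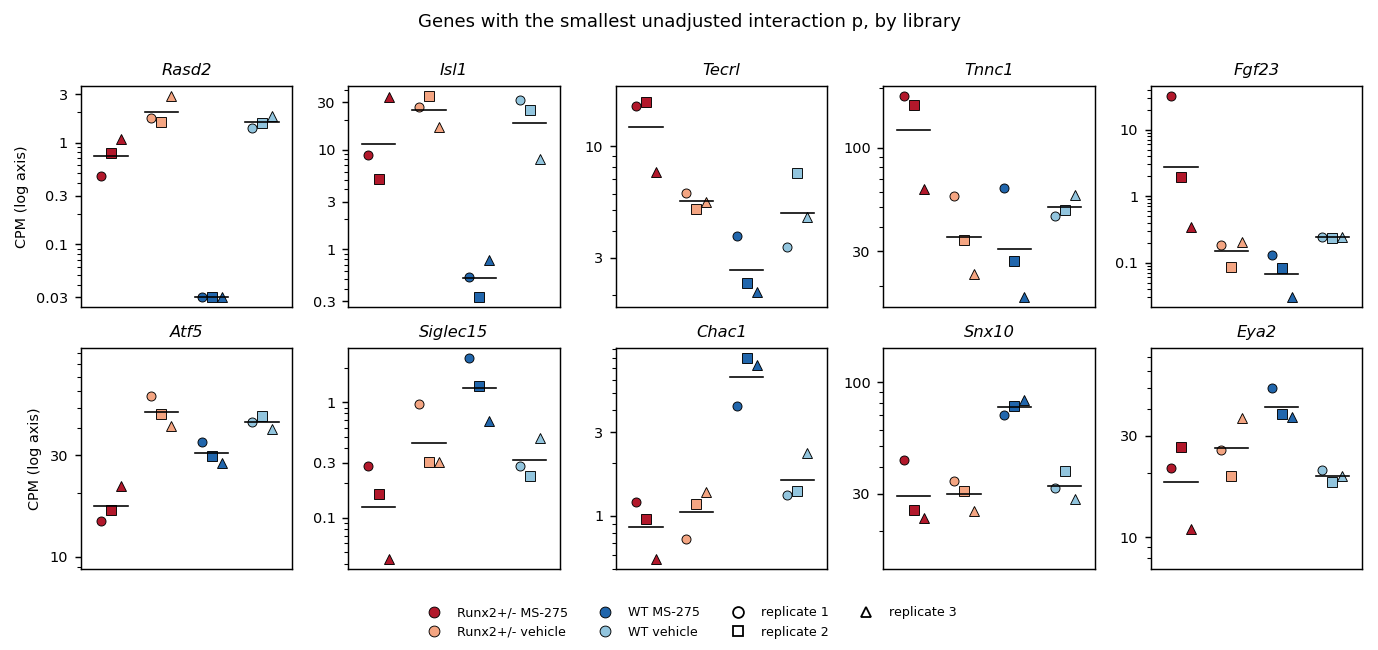
Level (CPM, log axis) of 10 genes with small unadjusted interaction p, in each library by group and replicate, with the geometric mean of each group as a black line; a value of 0 is drawn at 0.03 CPM. Rasd2 has no count in WT MS-275, Tecrl and Tnnc1 are highest in replicates 1 and 2 of Runx2+/- MS-275, and Chac1 and Snx10 are highest in WT MS-275.

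Fgf23 (chromosome 6, 127072902 to 127081408, plus strand, GRCm38), the hormone of osteocytes that lowers blood phosphate, passed the filter on low counts only with 11 libraries. It had 31.9, 1.92 and 0.348 CPM in Runx2+/- MS-275, 0.185, 0.0861 and 0.204 in Runx2+/- vehicle, 0.130, 0.0819 and 0 in WT MS-275 and 0.239, 0.231 and 0.247 in WT vehicle. Replicate 1 of Runx2+/- MS-275 was far above all others, and WT MS-275 held 3 counts or fewer in each library. Fgf23 passed the filter through the group where it is high, so its values are a description and its test is not given. Keratin 6a (Krt6a) changed sign between the fits, with an interaction of −3.68 (SE 1.09) with 11 libraries and 5.91 (SE 2.46) with 12, from 0, 0.0798 and 115 CPM in Runx2+/- MS-275, 123, 61.5 and 43.9 in Runx2+/- vehicle, 0.586, 0.737 and 0.776 in WT MS-275 and 85.4, 88.3 and 76.4 in WT vehicle. Replicates 1 and 2 of Runx2+/- MS-275 lay under their floors of 3 counts, 0.279 and 0.239 CPM. The size of the 11-library value is therefore uncertain.

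The other genes that the rule took in were Apoc1, Pou4f3, Il17b, Mir133a-2, Bnipl, Esrp2 and Fam19a4 on the positive side, with unadjusted p of 0.00169 to 0.00552 with 11 libraries. On the negative side they were Ncf4, Klhl33, Akr1c18, Shc2, Fbp1, Gpr137b, Pik3cb and Rhpn2, with unadjusted p of 0.00152 to 0.0125. Among them Gpr137b, a lysosomal membrane protein, had 20.3, 19.2 and 25.6 CPM in Runx2+/- MS-275, 30.7, 24.4 and 21.9 in Runx2+/- vehicle, 48.0, 46.9 and 36.2 in WT MS-275 and 29.2, 25.1 and 27.9 in WT vehicle, and the WT MS-275 libraries did not overlap any other group. Its interaction was −1.05 log2 (SE 0.26, 95% interval −1.62 to −0.48) with 11 libraries and −0.91 (SE 0.27) with 12. The catalytic PI3 kinase subunit Pik3cb had 6.41, 7.58 and 12.6 CPM in Runx2+/- MS-275, 18.7, 20.5 and 16.7 in Runx2+/- vehicle, 15.8, 13.2 and 11.6 in WT MS-275 and 17.9, 17.8 and 18.1 in WT vehicle. Replicates 1 and 2 of Runx2+/- MS-275 were below all others. Pik3cb fell by 1.41 log2 (SE 0.20, adjusted p = 0.00251) in Runx2+/- and differed by −0.41 log2 (SE 0.17, adjusted p = 0.0656) in WT, with an interaction of −1.0 log2 (SE 0.25, 95% interval −1.57 to −0.44) with 11 libraries and −0.66 (SE 0.35) with 12.

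DESeq2 called a few genes where edgeR called none. Of its 38 calls with 12 libraries, all higher, 34 had replicate 3 of Runx2+/- MS-275 more than 2-fold above both other libraries of its group, and 29 were at 0 in all 3 WT MS-275 libraries. They included hair and skin genes (Krt35, Krt73, Casp14, Kprp) and fat genes (Plin1, Cidec, Cidea), named after their values were seen. With 11 libraries its 6 calls were Fgf23, for which the limit given above holds, Gapdh (0.85, DESeq2 adjusted p = 0.0195), Tecrl (2.43, adjusted p = 0.0281), Klhl13 (0.93, adjusted p = 0.036), 2310002L09Rik (2.62, adjusted p = 0.0437) and Atf5 (−1.13, adjusted p = 0.046). Of these, Tecrl and Atf5 also stood among the 10 smallest edgeR p-values in their direction in both fits. Gapdh, the glycolytic enzyme often used as a loading control, had 1337, 1276 and 629.7 CPM in Runx2+/- MS-275, 599.8, 574 and 519 in Runx2+/- vehicle, 855, 773 and 739 in WT MS-275 and 546, 648 and 642 in WT vehicle. All 3 Runx2+/- MS-275 libraries were above their vehicle libraries, as were the WT MS-275 libraries above theirs. Its edgeR interaction was 0.85 log2 (SE 0.27, 95% interval 0.25 to 1.44) with 11 libraries and 0.57 (SE 0.42) with 12 (unadjusted p = 0.01 with 11 libraries and 0.205 with 12). Klhl13 lies on the X chromosome, and the groups differed in sex as given above. Lrp2, an endocytic receptor of epithelia, was the only gene called by edgeR for the interaction in any alternative fit. It was at 3.81 (adjusted p = 0.0141) in the 12-library fit without replicate 1 of Runx2+/- MS-275. The value was 4.03 in the 11-library fit without that replicate, where 1 library stood for Runx2+/- MS-275. Levels of Lrp2 were 0.557, 12.4 and 8.79 CPM in Runx2+/- MS-275, 18.7, 19.3 and 24.5 in Runx2+/- vehicle, 0.456, 0.409 and 0.518 in WT MS-275 and 11.5, 13.03 and 14.2 in WT vehicle, so the library left out was the lowest of its group. With that library its interaction was 3.12 log2 (SE 1.11, 95% interval 0.64 to 5.60) with 11 libraries and 3.28 (SE 1.04) with 12.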

How the data were processed

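Total RNA from frozen calvariae was sequenced with a kit that marks strand, per the labels' protocols. The authors deposited whole-number read counts per Ensembl gene in 1 file per library, without normalization, made with Trimmomatic, Bowtie2, SAMtools and HTSeq per the submitters' processing notes. GRCh38.p7, which is human, is the build named there, although the identifiers are those of mouse genes. Tool versions and the strand setting of the counting are not given in the sources used here, so antisense and overlapping genes are uncertain. The 5 summary entries of each file that name no gene stayed out of library sizes and tests. Positions and symbols are from GENCODE M21 (GRCm38), with a symbol for 37693 of 39179 identifiers; the 1486 others held 0.184% of counts.

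Low counts were filtered with filterByExpr over the 4 groups, and CPM use TMM factors from all 12 libraries. Each fit had the 4 groups as its only terms and used edgeR 4.0.16 in R 4.3.3 (glmQLFit, robust, then glmQLFTest), with 8 residual degrees of freedom for 12 libraries and 7 for 11. Adjusted p-values (Benjamini-Hochberg, threshold 0.05, two-sided) are over all genes of a fit and are from edgeR unless another tool is named. SE is the absolute log2 value over the square root of F. Alternatives were RLE scaling, library size alone, no filter on low counts, DESeq2 1.42.0, limma-voom (limma 3.58.1), a replicate block, a fit without mitochondrially encoded genes and each library left out. The fit code was tested on simulated data with less spread than these libraries and no outlying library. That test does not measure power or error rates here. An exact permutation test of 3 libraries against 3 cannot go below 0.1, so none is given. The floor of 3 counts and the shares cover counting error only.

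Members, gene lists and the left-out library were chosen with earlier results of these data known. Genes named are 63 bone, signalling and cell type genes and, in each fit and direction, the 10 with the smallest interaction p, leaving out predicted genes and genes of the sex chromosomes. Genes outside the rule are said to have been picked after their values were seen. Of the list members, Flg and Ahsp matched no symbol. Figures were drawn with matplotlib 3.10.9.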

Additional observations from a re-analysis of the deposited data

Results flagged for a closer look

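Replicate 3 of Runx2+/- MS-275, the library with and without which the interaction is given, had 22.2% of its uniquely aligned reads assigned to no gene. These reads enter no comparison. The other 2 libraries of its group had 6.36% and 8.65%, Runx2+/- vehicle had 14.1% to 16.8%, WT MS-275 had 5.21% to 6.28% and WT vehicle had 10.5% to 15.2%. The share in that library was thus the highest of the 12, and within its group it was apart from the other 2.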

How the results depend on the processing

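The interaction stayed at 0 calls in both directions, with 11 and with 12 libraries, under RLE scaling, library size alone, no filter on low counts, limma-voom, the replicate block and the fit without mitochondrially encoded genes. DESeq2 called 38 higher and 0 lower with 12 libraries, and 5 higher and 1 lower with 11. With single libraries left out, edgeR called 0 to 1 higher and 0 lower with 12 libraries, the 1 being Lrp2. With 11 libraries it called 0 in both directions wherever more than 1 library remained in each group. Without replicate 3 of Runx2+/- MS-275, Runx2+/- vehicle and WT vehicle (9 libraries, an alternative chosen after seeing the data), 0 genes were called and 717 had an unadjusted p under 0.05. Each of these left-out libraries was apart from its group on the first principal component.

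The drug difference in Runx2+/- with 12 libraries moved to 857 higher and 423 lower with DESeq2, and ranged over single libraries left out from 0 to 3367 higher and from 0 to 2588 lower. With 11 libraries it was 784 higher and 8755 lower by library size alone, 3788 and 3998 with DESeq2, and 4321 and 5222 with 9 libraries, and it ranged from 345 to 3581 higher and from 191 to 4227 lower over single libraries left out. In WT with 12 libraries it was 526 higher and 7009 lower by library size alone, 0 and 0 without the filter, 3326 and 3897 with DESeq2, and 0 and 1 with limma-voom, and it ranged from 0 to 4040 higher and from 0 to 4440 lower. The causes of these moves were not tested.

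Replicates of the 4 groups share numbers 1 to 3, but not every same-numbered pair correlated over 0.1, so the numbers were not taken as a pairing. Deviations from the group means of same-numbered libraries correlated at −0.66 to 0.81, and 6 of 18 pairs were over 0.1. The 3 pairs between the vehicle groups were at 0.22 to 0.81, those between the MS-275 groups at −0.20 to 0.28, and 5 of 12 libraries correlated best with their own number. A replicate block gave 4336 higher and 3890 lower in Runx2+/- with 11 libraries, and 0 and 0 in WT with 12.

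Of the named genes, 73 of 95 kept the sign of their interaction under every alternative with 11 libraries and 71 of 94 with 12. These counts include the genes taken for the smallest interaction p in these same fits. They therefore do not measure how stable the signs of genes in general were. The common biological coefficient of variation was 0.355 with 11 libraries and 0.442 with 12, and the median SE of the interaction was 0.45 and 0.52 log2.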
